A study of Mus musculus with 8 samples.

Results

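Purinergic receptors let microglia, the resident macrophages of the brain, sense nucleotides that other cells release. The genes described here are 6 receptor genes and 1 enzyme gene: P2ry12, P2ry13, P2ry14, P2ry6, P2rx4, P2rx7 and Entpd1. They were taken as all rows of the deposited region table whose gene name was one of these 7 symbols, which gave 123 of 129304 regions and 7 of 18707 gene names. H3K27ac, the acetylated form of lysine 27 of histone H3 that is found at active enhancers and promoters, had been measured by chromatin immunoprecipitation and sequencing in brain nuclei sorted as PU.1+, OLIG2- and NEUN-. The mice were C57BL/6 animals aged 2 years, either wild type (WT) or without functional Grn (GrnKO), the gene of the lysosomal and secreted protein progranulin. The labels used here name no further allele or agent, and nuclei of 2 mice were pooled for each replicate. There were 2 H3K27ac libraries and 2 input libraries (chromatin without immunoprecipitation) per genotype. The p-values therefore rest on only 2 pools per genotype, and the tests draw the spread of each region or gene towards that of the others.

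Nucleotides reach microglia as signals of injury or of neuronal activity. P2Y receptors are G-protein-coupled, P2X receptors are cation channels opened by ATP, and the surface enzyme CD39, the product of Entpd1, breaks ATP and ADP down to AMP. P2ry12 encodes the ADP receptor that steers microglial processes towards a site of injury, and it is widely used as a marker of homeostatic microglia. P2ry13 encodes a second ADP receptor, P2ry14 a receptor for UDP-sugars, and P2ry6 the UDP receptor linked to phagocytosis. P2rx4 encodes a channel held largely in lysosomes, and P2rx7 the channel that leads to inflammasome activation when ATP is high.

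The 250 bases upstream of 3 starts are shown: P2rx4, whose start region passed the test below, P2rx7, whose sum passed, and P2ry12, the marker gene. They run 5′ to 3′ on the strand of the gene. They are RefSeq sequences of GRCm38.p6, the assembly that the mm10 name of the submitters' processing notes refers to. P2ry12 lies at chr3:59262986-59263235 on the minus strand, P2rx4 at chr5:122707294-122707543 on the plus strand and P2rx7 at chr5:122643677-122643926 on the plus strand. Capitals mark matches to 4 motifs searched on both strands: GGAAGT (the core bound by ETS factors and PU.1), CACGTG (the E-box of the MITF and TFE family), TGANTCA (AP-1) and CTA and TAG 4 bases apart (MEF2).
P2ry12: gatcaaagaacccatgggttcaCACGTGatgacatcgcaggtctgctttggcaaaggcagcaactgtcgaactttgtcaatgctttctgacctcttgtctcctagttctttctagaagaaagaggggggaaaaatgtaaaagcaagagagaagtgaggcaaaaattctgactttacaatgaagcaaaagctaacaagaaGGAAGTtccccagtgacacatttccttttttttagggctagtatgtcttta
P2rx4: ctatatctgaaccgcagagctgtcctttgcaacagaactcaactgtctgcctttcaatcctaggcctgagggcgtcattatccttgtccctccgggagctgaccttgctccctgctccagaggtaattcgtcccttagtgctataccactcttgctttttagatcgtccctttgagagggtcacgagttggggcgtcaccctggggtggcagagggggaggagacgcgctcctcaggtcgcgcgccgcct
P2rx7: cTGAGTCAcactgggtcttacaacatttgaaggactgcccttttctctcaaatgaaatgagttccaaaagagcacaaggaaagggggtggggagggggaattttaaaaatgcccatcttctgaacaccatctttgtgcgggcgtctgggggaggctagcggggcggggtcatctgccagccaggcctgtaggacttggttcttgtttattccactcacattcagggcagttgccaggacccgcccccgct
The P2ry12 window held 1 CACGTG and 1 GGAAGT match, and the P2rx7 window 1 TGANTCA match. In the P2rx4 window none of the 4 letter patterns was found. Among 32851 RefSeq windows of the same length, 19.7% held GGAAGT, 6.02% CACGTG, 6.75% TGANTCA and 3.20% the MEF2 pattern. The base composition differed, with 41.6% G or C upstream of P2ry12, 57.2% upstream of P2rx4 and 53.6% upstream of P2rx7. Windows were found for 6 of the 7 members.

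Values are tags per 800 bp region at 10000000 tags per library, after TMM scaling (a factor per library that aligns the bulk of regions), and are called scaled tags. A region or gene passed the test where limma's p, adjusted by the Benjamini-Hochberg method over all 80728 regions or 15380 genes tested, was under 0.05. The 4 H3K27ac libraries held 15491642.5 to 20030832 tags, and WT replicate 1 stood apart, with 49.4% of its tags in the listed regions against 63.3% to 65.7% in the others. In the authors' own scaling (by library total in what follows) the log2 change of tested regions had a median of 0.22 in place of -0.0020 with TMM. That is why changes are given relative to the bulk of regions, and values by library total are given beside those that turn. The labels were checked at Grn: its summed H3K27ac was 2291 and 1871 scaled tags in WT and 157 and 162 in GrnKO. All 10 microglia markers had H3K27ac, at 134 to 372 scaled tags per region, while the markers of 6 other cell types had at most 90.8. Microglia markers summed to 50959 and 55546 scaled tags in WT and 42180 and 45144 in GrnKO, and 5 of 10 fell, among them Cx3cr1, Csf1r, Tmem119 and Sall1. In the authors' scaling none of the 10 passed (1 at an unadjusted limma p under 0.05) and the sums overlapped, at 42058 and 57529 in WT and 45607 and 48845 in GrnKO. In such sorted bulk material, fewer nuclei of a type and less H3K27ac per nucleus cannot be told apart.

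Across the 7 genes, summed H3K27ac rose in GrnKO at P2ry14 and fell at P2rx7, while the other 5 genes did not pass the test. At single regions 9 of 118 tested passed, which is 7.63% against 9.71% of all tested regions. Of these, 5 were higher in GrnKO (4.24%, against 6.8% of all regions) and 4 were lower (3.39%, against 2.92%). The higher ones were 1 region at the start of P2rx4, 1 upstream of it and 3 within Entpd1, and the lower ones were 1 each of P2ry12, P2ry13, P2rx4 and P2rx7. None of the 9 passed when either GrnKO replicate was left out, with adjusted p between 0.0517 and 0.521. In the authors' scaling 4 of the 9 remained past the threshold: the 3 of Entpd1 and 1 of P2rx4. On gene sums 2 of 7 passed, 28.6% against 14.5% of all genes: 1 was higher, against 8.59% of all, and 1 lower, against 5.88% of all. The genotypes did not overlap in any of the 7 sums, and they did not overlap in 54.8% of all gene sums. By library total 4 of the 7 did not overlap, against 49.7% of all. Over the 118 regions the log2 change had a median of -0.083, beside -0.0020 over all tested regions. By library total the medians were 0.14 and 0.22, and 28 of the 118 changed sign. The genotypes did not overlap in 68 of the 118 regions (57.6%, against 52.7% of all). Both GrnKO libraries lay above both WT libraries in 28 regions (23.7%, against 27% of all) and below them in 40 (33.9%, against 25.6%). By library total these counts were 36 (30.5%, against 35.8%) and 15 (12.7%, against 13.3%). Neighbouring regions overlap in places and share tags, so they are not independent. The remaining 5 regions of the 123 held too few tags to be tested.

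**Figure D1:**
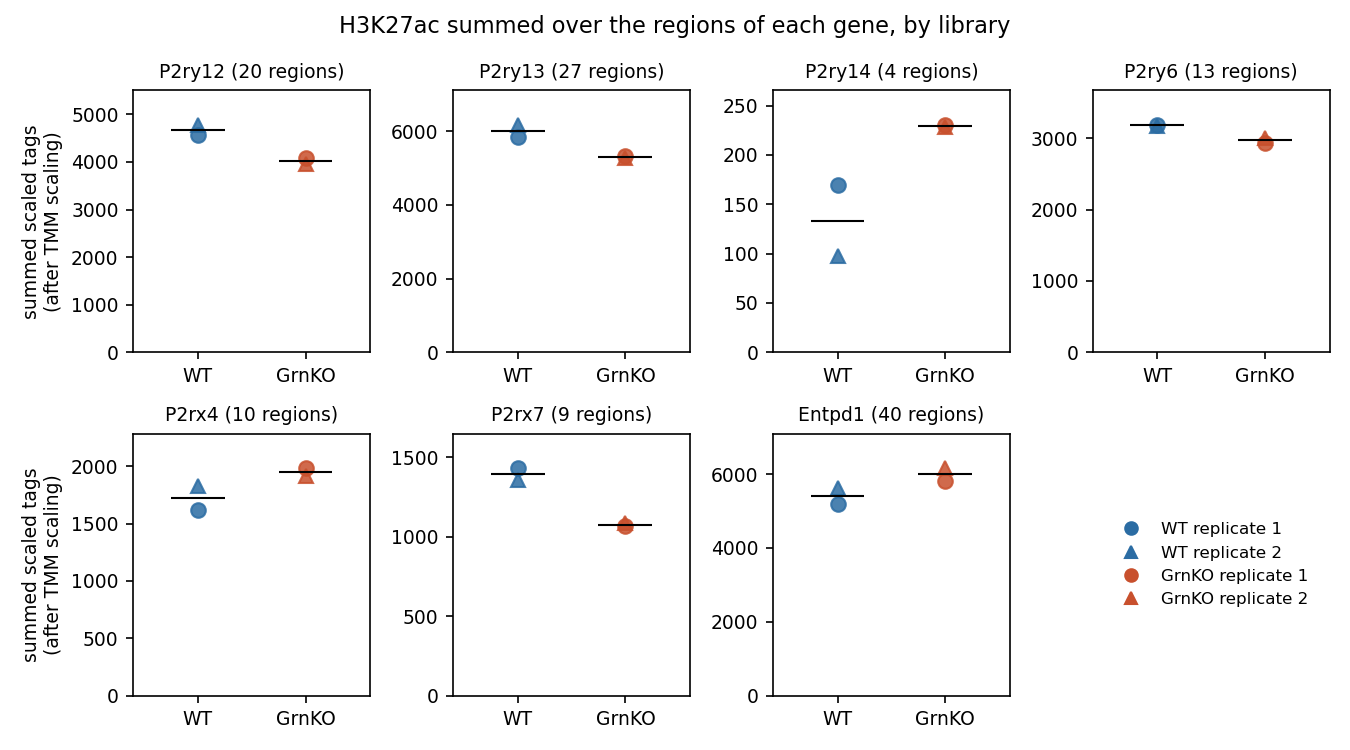
H3K27ac summed over all regions of each of the 7 genes, in scaled tags, for each library of WT and GrnKO mice, with circles for replicate 1, triangles for replicate 2 and bars for the mean. P2rx7 lies lower in both GrnKO libraries (1065 and 1086) than in both WT libraries (1430 and 1352), and P2ry14 lies higher (231 and 229 against 169 and 97.7).

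The genes also differed in how much H3K27ac they carried. Per region of 800 bp, averaged over the 4 libraries, P2ry6 had 237 ± 9.61 scaled tags, P2ry12 217 ± 19.6 and P2ry13 209.5 ± 16.2 (SD, n = 4 libraries of both genotypes). P2rx4 followed with 184 ± 15.8, then Entpd1 with 143 ± 10.1, P2rx7 with 137 ± 20.6 and P2ry14 with 45.4 ± 15.7. The ranges over libraries overlapped between neighbours in that order from P2ry6 to P2rx4, and between Entpd1 and P2rx7. The order of that last pair turned between genotypes: P2rx7 was above Entpd1 in both WT libraries (159 and 150.3 against 130 and 141) and below it in both GrnKO libraries (118 and 121 against 146 and 154). They did not overlap between P2rx4 (from 162) and Entpd1 (up to 154), nor between P2rx7 (from 118) and P2ry14 (up to 57.7). In 6 genes the mean input sum was between 0.867% and 3.09% of the mean H3K27ac sum in the authors' scaling, and at P2ry14 it was 8.27%.

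P2ry12 and P2ry13, the ADP receptor genes, sit side by side on chromosome 3 and both had lower sums in both GrnKO pools after TMM scaling, without passing the test. Over its 20 regions P2ry12 summed to 4568 and 4786 scaled tags in WT and to 4089 and 3954 in GrnKO. Both GrnKO pools thus lay under both WT pools, at a ratio of 0.860. The change was -0.22 (log2; SE 0.073, limma adjusted p = 0.0627) and did not pass the test. In the authors' scaling the change was 0.0087. Over its 27 regions P2ry13 summed to 5852 and 6184 scaled tags in WT and to 5319 and 5273 in GrnKO. The groups again did not overlap, and the change of -0.18 (SE 0.068, limma adjusted p = 0.0934) did not pass either. Its value was 0.043 in the authors' scaling. Leaving out each library in turn, P2ry12 and P2ry13 passed without WT replicate 1 (limma adjusted p = 0.0062 and 0.0086). They did not pass without WT replicate 2 (0.0589 and 0.121), GrnKO replicate 1 (0.307 and 0.437) or GrnKO replicate 2 (0.423 and 0.447).

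Within P2ry12 the highest values were not at the start site itself but just downstream. The region centred 1140 bp downstream held 789 and 811 scaled tags in WT and 720 and 662 in GrnKO, a level above 99.9% of tested regions. The region over the start held 518 and 510 in WT and 480 and 419 in GrnKO. Neither passed the test, with log2 changes of -0.21 and -0.20 (limma adjusted p = 0.223 and 0.357), and both turned in the authors' scaling, to 0.013 and 0.029. The 1 region of P2ry12 that passed, at chr3:59259184-59259984, lay 3401 bp downstream of the start and held 384 and 314 scaled tags in WT and 214 and 266 in GrnKO. The log2 change was -0.54 (SE 0.16, limma adjusted p = 0.0391). It missed the threshold in edgeR (adjusted p = 0.0505), without the filter (limma, 0.0819) and by library total (-0.31, limma adjusted p = 0.561). Without WT replicate 1, where it was -0.39, it also missed it. The region also lies in intron 30 of 43 of Med12l, the gene on the other strand whose body spans this locus. Of the 20 P2ry12 regions, 18 are annotated inside Med12l. The 4 regions between 3.40 and 5.85 kb downstream summed to 809 and 821 in WT and 513 and 612 in GrnKO, a ratio of 0.690 (0.802 by library total). For the 8 regions within 3 kb of the start it was 0.897 (1.04 by library total), and for the 8 further downstream 0.871 (0.995 by library total). This split was chosen after the values were seen and was not tested. In all, 11 of the 20 regions had both GrnKO libraries below both WT libraries and 1 had them above, against 25.6% and 27% of all tested regions. By library total 2 were below and 2 above, against 13.3% and 35.8%.

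P2ry13 reached its highest values in 2 places. At its own start the promoter region held 391 and 443 scaled tags in WT and 399 and 392 in GrnKO, and the groups overlapped (log2 change -0.07, limma adjusted p = 0.794; 0.15 by library total). A region 18803 bp upstream held 454 and 402 in WT and 378 and 406 in GrnKO, again overlapping (-0.12, limma adjusted p = 0.621; 0.10 by library total). The region that passed was at chr3:59217800-59218600, 7318 bp upstream of P2ry13, in exon 5 of 5 of a transcript of P2ry12. It held 269 and 274 scaled tags in WT and 169 and 199 in GrnKO, so that every GrnKO value was below every WT value (-0.56, SE 0.16, limma adjusted p = 0.0339). Without the filter its limma adjusted p was 0.063, and by library total its change was -0.34 (limma adjusted p = 0.526). By position, the 12 regions over 3 kb upstream had a ratio of 0.831 (0.967 by library total), with 9 of 12 below WT in both GrnKO libraries. The other 15 regions had a ratio of 0.940 (1.08 by library total), with 4 below and 2 above. Over the whole gene 13 of 27 were below, against 25.6% of all tested regions, and 6 by library total, against 13.3%. This division was likewise made with the values in view. Since 6 P2ry13 regions are annotated inside P2ry12 and 16 inside Med12l, the nearest start site, not a measured contact, assigned them to P2ry13.

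**Figure D2:**
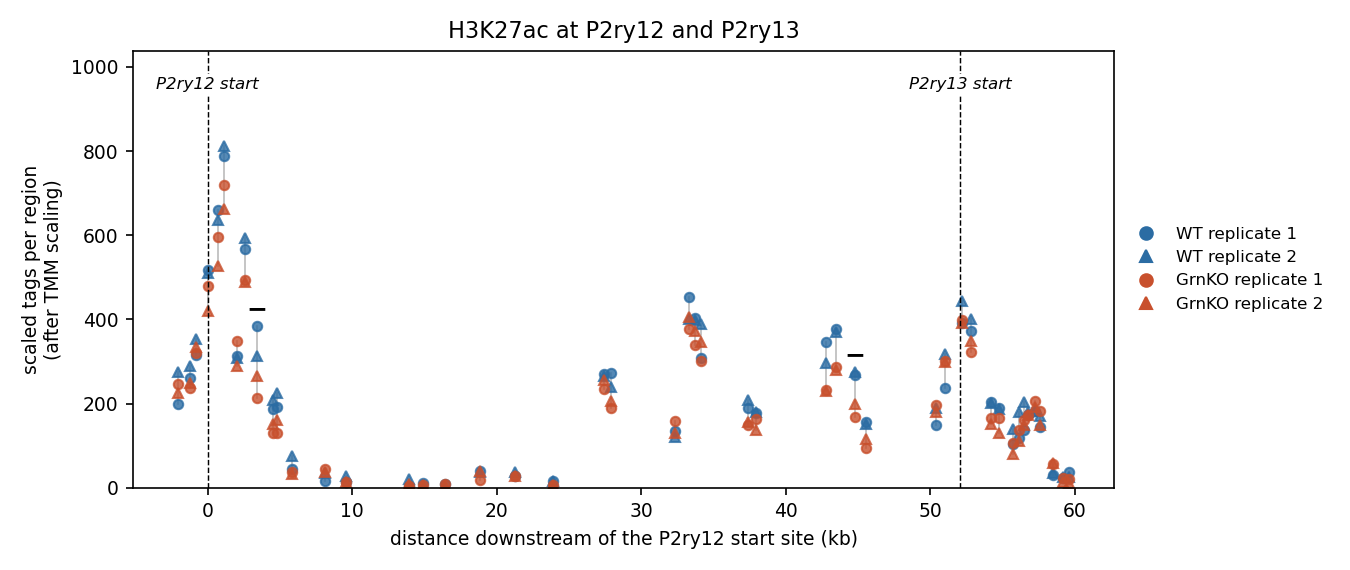
H3K27ac in each of the 47 regions assigned to P2ry12 or P2ry13, in scaled tags, by distance in kb downstream of the P2ry12 start site, with dashed lines at both starts and grey lines joining the 4 libraries of a region. The minus signs mark the regions that passed as lower in GrnKO, 3401 bp downstream of the P2ry12 start and 7318 bp upstream of the P2ry13 start.

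P2ry14, the UDP-sugar receptor gene further along the same cluster, went the other way from a low level. Its 4 regions summed to 169 and 97.7 scaled tags in WT and to 231 and 229 in GrnKO. The sum rose by 0.83 on the log2 scale (SE 0.24, limma adjusted p = 0.035), more than the spread between the WT pools. Of the 3 regions with tags above the floor in WT, none passed the test after TMM, or passed with edgeR or DESeq2. All 3 had an unadjusted limma p under 0.05. Leaving out WT replicate 1 moved the changes at the start and 10670 bp downstream from 1.22 and 0.58 to 0.92 and 0.81. The region over the start held 8.60 and 13.6 scaled tags in WT and 32.5 and 21.7 in GrnKO (1.22, SE 0.49, limma adjusted p = 0.130). A pair of regions 10078 and 10670 bp downstream carried most of the tags. The nearer one held 84.9 and 29.3 in WT and 98.7 and 96.4 in GrnKO, so WT replicate 2 was the low library there. Its change of 0.95 (limma adjusted p = 0.100) passed by library total (1.17, limma adjusted p = 0.0253), with a replicate block (limma adjusted p = 0.00567) and without WT replicate 1 (1.70, limma adjusted p = 3.85e-06), and was 0.20 without WT replicate 2. The fourth region, 5054 bp downstream, was under the floor of 3 tags in both WT libraries, at 0.391 and 0.524 scaled tags, against 9.62 and 7.84 in GrnKO. It passed the filter on low tags only through GrnKO and so had to differ, and it was the 1 region that passed with DESeq2. Leaving out WT replicate 2 reduced the change of the sum to 0.44 (limma adjusted p = 0.106), and leaving out either GrnKO replicate raised its p to 0.146 or 0.177. The border macrophage list, cells that could enter the same gate, summed to 1261 and 1214 scaled tags in WT and to 1696 and 1541 in GrnKO. In that list 1 of 7 genes rose, Ms4a7, from 170 and 147 to 550 and 420, while 4 of the 7 had log2 changes below 0 and the median was -0.041. By library total 2 of 7 rose, Ms4a7 and F13a1, 5 of 7 were above 0 and the median was 0.18. None of the 7 was at 0. The part of these cells in the P2ry14 value was not tested.

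P2ry6, the UDP receptor gene on chromosome 7, had the highest H3K27ac per region of the 7 genes and did not pass the test. It summed to 3190 and 3175 scaled tags in WT and to 2939 and 3004 in GrnKO (log2 change -0.10, SE 0.077, limma adjusted p = 0.465; 0.13 by library total). The interval of 2 SE around that change runs from -0.25 to 0.056. The region over its start, the highest of the 13, held 472 and 470 in WT and 409 and 404 in GrnKO, with no overlap but no call (-0.21, limma adjusted p = 0.313; 0.014 by library total). The region nearest to passing lay 15009 bp upstream, at chr7:100978975-100979775, with 178 and 194 scaled tags in WT and 122 and 136 in GrnKO (-0.53, SE 0.18, limma adjusted p = 0.0781). No region of P2ry6 passed the test, nor did any with edgeR or DESeq2, and 1 had an unadjusted limma p under 0.05. With a replicate block the region 15009 bp upstream passed (-0.53, limma adjusted p = 0.0421). Without WT replicate 1 its change was -0.59, and by library total it was -0.31. Below WT in both GrnKO libraries were 7 of the 13, against 25.6% of all tested regions, and 3 by library total, against 13.3%. Both counts include the region 20681 bp upstream, with 12.5 and 11.5 scaled tags in WT and 3.68 and 4.84 in GrnKO. That region passed the filter on low tags only through WT and so had to be lower.

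P2rx4, the lysosomal ATP-gated channel gene on chromosome 5, rose at 2 regions at and upstream of its start, while its sum did not pass. The sum was 1619 and 1829 scaled tags in WT and 1983 and 1912 in GrnKO (log2 change 0.18, SE 0.095, limma adjusted p = 0.256; by library total 0.40, limma adjusted p = 0.350). Both GrnKO libraries were above both WT libraries, and the sum depended on the WT pool left out. Without WT replicate 2 it passed, at 0.27 (limma adjusted p = 0.0316), and without WT replicate 1 it was 0.090 (limma adjusted p = 0.580). H3K27ac rose over the start: the region at chr5:122707161-122707961 held 234 and 253 scaled tags in WT and 356 and 358 in GrnKO (0.55, SE 0.14, limma adjusted p = 0.0198). It contains the P2rx4 window printed above. By library total its change was 0.78 and did not pass (limma adjusted p = 0.0657). The region at chr5:122704266-122705066, 2878 bp upstream and intergenic, held 99.3 and 110.0 in WT and 216 and 174 in GrnKO, a rise of 0.88 (SE 0.19, limma adjusted p = 0.00709). Of the 9 called regions of these genes, this one had the smallest p, and it was also past the threshold in the authors' scaling. With 2 neighbours these regions make 4 between 5.22 kb upstream and 0.295 kb downstream, which summed to 684 and 700.3 scaled tags in WT and to 1060.1 and 1006 in GrnKO, a ratio of 1.49.

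A cluster of 4 regions 23.9 to 26.5 kb downstream of the P2rx4 start lies beyond the end of the RefSeq gene (122729739) and inside Camkk2, the neighbouring kinase gene. It was given to P2rx4 by nearest start site alone, and it summed to 929.6 and 1115 scaled tags in WT and 901 and 901 in GrnKO, a ratio of 0.881 (1.01 by library total). Its highest region, 24969 bp downstream, held 378 and 453 in WT and 364 and 386 in GrnKO, with overlapping groups (log2 change -0.14, limma adjusted p = 0.577; 0.083 by library total). One of the 4 regions fell, and the other 3 did not pass. It lies at chr5:122733608-122734408 in the 3′ untranslated exon 16 of 16 of Camkk2. It held 66.1 and 67.8 scaled tags in WT and 31.7 and 32.5 in GrnKO (-1.04, SE 0.30, limma adjusted p = 0.0332; by library total -0.82, limma adjusted p = 0.153). These sums of neighbours were formed after the values were seen and were not tested. Camkk2 itself, from its own 13 regions, had a log2 change of 0.083 (limma adjusted p = 0.658).

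P2rx7, the gene of the channel opened by high ATP, lies upstream of P2rx4 on the same chromosome, and its summed H3K27ac fell. It summed to 1430 and 1352 scaled tags in WT and to 1065 and 1086 in GrnKO, a ratio of 0.773. The sum fell by 0.37 on the log2 scale (SE 0.10, limma adjusted p = 0.0244). The means, 1391 ± 54.9 in WT and 1075 ± 14.9 in GrnKO (SD, n = 2), lay further apart than either SD. The region over its start, which contains the P2rx7 window printed above, held 457 and 386 in WT and 318 and 334 in GrnKO (-0.37, SE 0.14, limma adjusted p = 0.105). Its highest region, 448 bp downstream, held 549 and 530 in WT and 396 and 446 in GrnKO (-0.36, SE 0.12, limma adjusted p = 0.0745). Neither passed the test alone, and the groups did not overlap in either. Both passed with a replicate block (limma adjusted p = 0.0448 and 0.0248). By library total neither did, at -0.14 and -0.13. The 1 region that passed the test was at chr5:122639315-122640115, intergenic and 4196 bp upstream. It held 123 and 147 scaled tags in WT and 93.6 and 69.9 in GrnKO (-0.73, SE 0.23, limma adjusted p = 0.0489). It missed the threshold with edgeR and DESeq2 (adjusted p = 0.0621 and 0.0573), without the filter (limma, 0.0756) and by library total (-0.50, limma adjusted p = 0.35). It also missed it without WT replicate 2. In 6 of the 8 tested regions both GrnKO libraries were below both WT libraries, against 25.6% of all tested regions, and in 1 they were above (3 and 2 by library total, against 13.3% and 35.8%). The sum no longer passed under the scaling of the authors (-0.14, limma adjusted p = 0.804) or without either GrnKO replicate (limma adjusted p = 0.242 and 0.165).

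**Figure D3:**
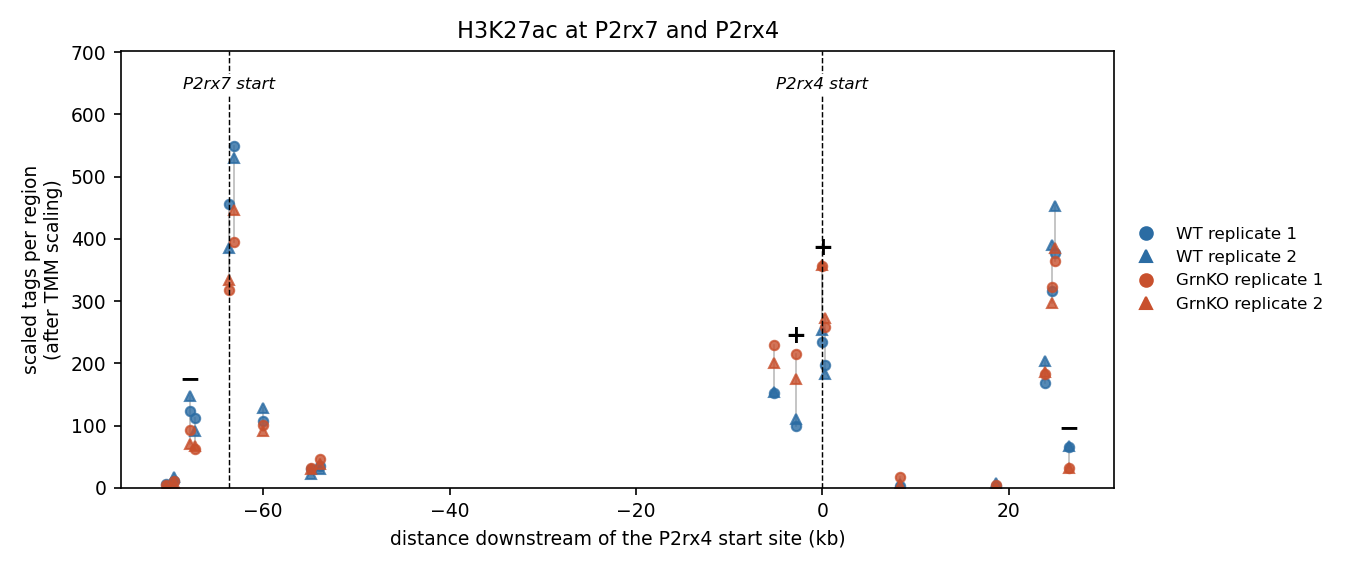
H3K27ac in each region assigned to P2rx4 or P2rx7, in scaled tags, by distance in kb downstream of the P2rx4 start site, with dashed lines at both starts and grey lines joining the 4 libraries of a region. At P2rx4 the 2 regions marked with a plus sign, at the start and 2878 bp upstream, are higher in GrnKO, and the region 26464 bp downstream marked with a minus sign is lower; at P2rx7 the region 4196 bp upstream is lower.

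P2rx7 had the smallest p of the 7 sums, so the genes whose log2 values over the 4 libraries ran closest to it were looked up. They were Eral1, Enox1 and Polg2, at Euclidean distances of 0.0068, 0.015 and 0.025 on the log2 scale after centring each gene on its own mean. None of these 3 passed the test (limma adjusted p = 0.513, 0.697 and 0.232), and each held fewer tags, with Polg2 the highest at 169 scaled tags in WT replicate 1. With 4 libraries many genes can run close to any one of them.

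Entpd1, the CD39 gene on chromosome 19, had the most regions, 40 over 133 kb. Of its 37 tested regions 3 rose, which is 8.11% and close to the 6.8% of all tested regions. Neither its sum nor the promoter region at its inner start passed. The sum was 5192 and 5630 scaled tags in WT and 5822 and 6162 in GrnKO (log2 change 0.15, SE 0.072, limma adjusted p = 0.209; by library total 0.37, limma adjusted p = 0.495). The groups did not overlap. Without WT replicate 2 the sum passed, at 0.21 (limma adjusted p = 0.0158), and without WT replicate 1 it was 0.089 (limma adjusted p = 0.401). At the inner start site the promoter region held 217 and 265 in WT and 227 and 261 in GrnKO, with overlapping groups (0.024, SE 0.16, limma adjusted p = 0.952). The highest region, 21927 bp upstream of that start, held 354 and 390.5 in WT and 462 and 510.3 in GrnKO, apart but not past the threshold (0.38, SE 0.13, limma adjusted p = 0.069). With a replicate block it passed (limma adjusted p = 0.022), and by library total it did not (0.61, limma adjusted p = 0.178).

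The regions of Entpd1 that passed lay in the gene body, all downstream of the inner start, and had lower levels than the strongest regions of the gene, each above 57.7% to 76.1% of all tested regions. The region at chr19:40682536-40683336, 23166 bp downstream, held 28.2 and 23.3 scaled tags in WT and 77.2 and 53.5 in GrnKO, a rise of 1.29 (SE 0.33, limma adjusted p = 0.0173). Its neighbour at chr19:40683888-40684688 held 53.6 and 75.2 in WT and 113 and 137 in GrnKO, a rise of 0.96 (SE 0.24, limma adjusted p = 0.0169). A region at chr19:40702340-40703140, 42970 bp downstream, went from 42.2 and 41.9 in WT to 82.6 and 84.0 in GrnKO (0.97, SE 0.27, limma adjusted p = 0.0273). In each of the 3 both GrnKO libraries stood above both WT libraries, and the call held in the authors' scaling. The strong region 49101 bp downstream differed by less than its replicates did, with 412 and 432 in WT and 412 and 449 in GrnKO (0.029, limma adjusted p = 0.924). Over the 37 tested regions, 15 had both GrnKO libraries above both WT libraries, which is 40.5% against 27% of all tested regions. In 2 they were below (by library total 18 above and 0 below, against 35.8% and 13.3%). The counts above include the region 13883 bp downstream of the outer start, with 2.35 and 14.9 scaled tags in WT and 23.5 and 21.5 in GrnKO. WT replicate 1 was under the filter on low tags there, so that region was tested only because of its GrnKO tags.

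**Figure D4:**
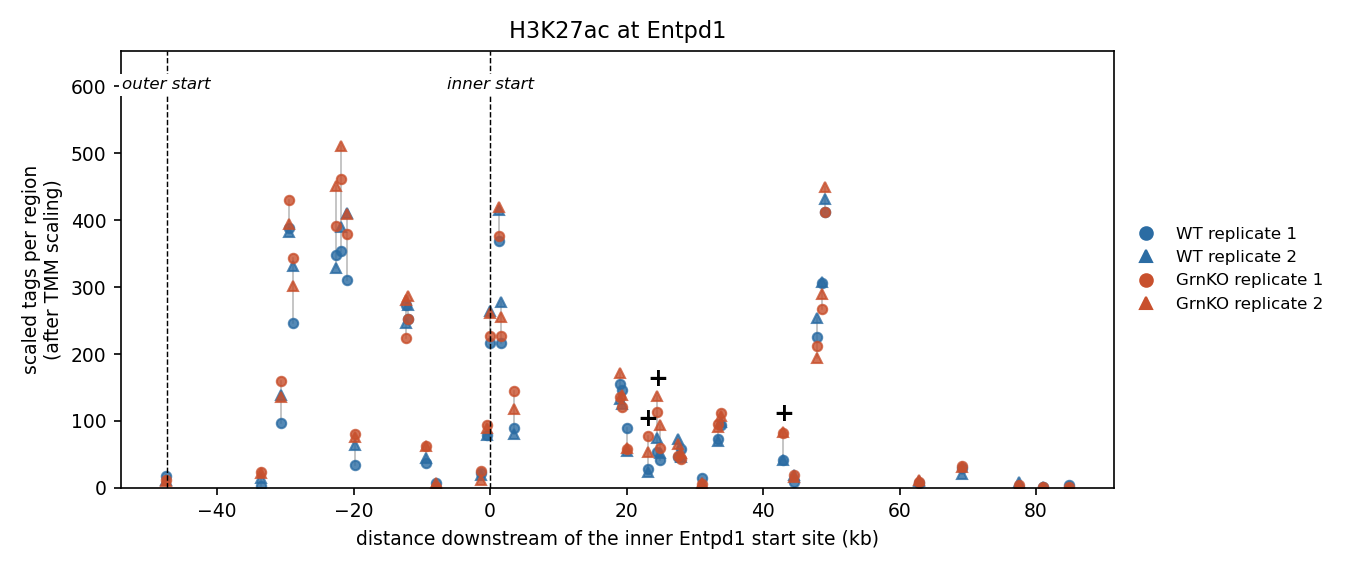
H3K27ac in each region assigned to Entpd1, in scaled tags, by distance in kb along the gene, with dashed lines at its start sites and grey lines joining the 4 libraries of a region. The plus signs mark the 3 regions higher in GrnKO, 23166, 24518 and 42970 bp downstream of the inner start, with 137 scaled tags in the highest library.

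**Figure D5:**
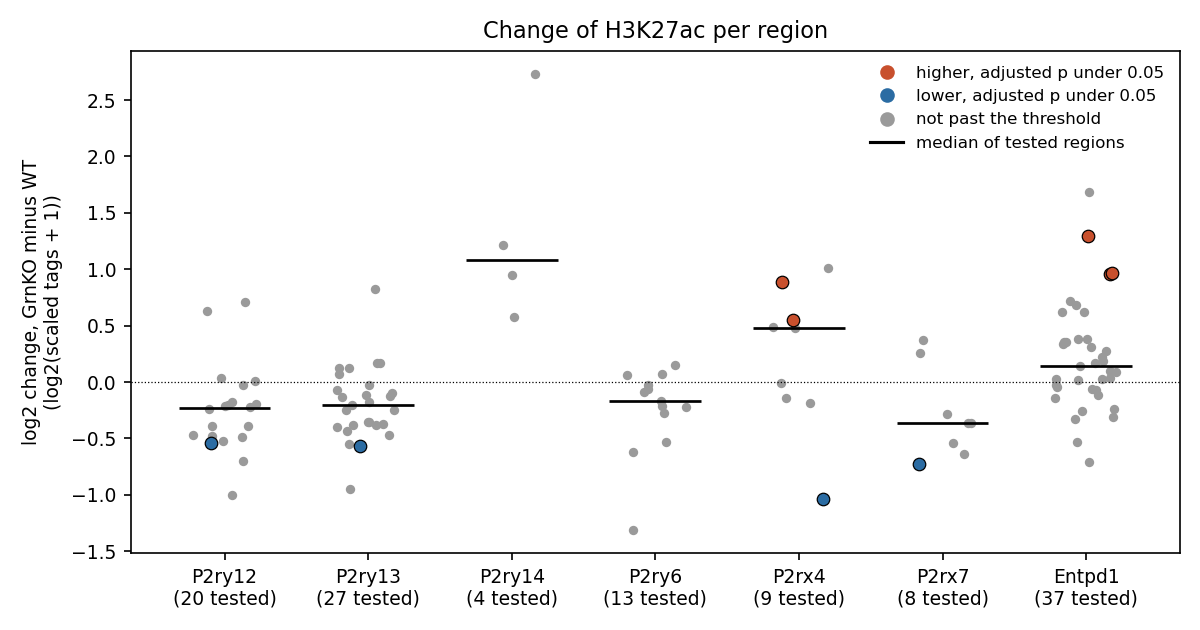
Log2 change of H3K27ac (GrnKO against WT) in each tested region of the 7 genes, 1 point per region, with the regions that passed the test marked. Regions of P2ry12 and P2ry13 lie mostly below 0 (16 of 20 and 21 of 27), and those of Entpd1 mostly above 0 (25 of 37), where 49.9% of all tested regions are above 0; by library total 65.3% of all tested regions are above 0, 11 of 20 P2ry12 and 13 of 27 P2ry13 regions lie below 0, and 31 of 37 Entpd1 regions lie above it.

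Other genes of nucleotide and adenosine signalling gave a reference for the 7. Of a list of 37, 34 had regions and 29 were tested: 1 rose, none fell and 28 did not pass (limma), where 8.59% of all tested genes were higher and 5.88% lower. At an unadjusted limma p under 0.05 there were 4 higher and 3 lower. None fell with edgeR or DESeq2, and 2 fell with a pseudocount of 5, with a replicate block and without either WT replicate. By library total Enpp1, a nucleotide pyrophosphatase gene, rose (1.04, limma adjusted p = 0.0186). P2rx6, a P2X subunit gene with 1 region, also passed there (1.91, limma adjusted p = 0.0178). It held 5.87 and 9.43 scaled tags in WT and 30.8 and 23.1 in GrnKO. WT replicate 1 was under the filter on low tags, so P2rx6 was tested only because of its GrnKO tags, which favoured a rise. The median log2 change of the 29 was -0.058, beside -0.046 over all tested genes (0.17 and 0.18 by library total). The gene that rose was Kcnk13, which encodes the potassium channel THIK-1 that acts in microglial surveillance. It summed to 2103 and 2002.5 scaled tags in WT and to 2612 and 2771 in GrnKO, with no overlap. The rise was 0.39 (SE 0.086, limma adjusted p = 0.0076), and it did not pass in the authors' scaling (0.62, limma adjusted p = 0.0986) or without either GrnKO replicate (limma adjusted p = 0.0645 and 0.143). Among the adenosine receptors, Adora3 had the most H3K27ac, with 3229 and 3483 in WT and 2918 and 2952 in GrnKO (-0.19, limma adjusted p = 0.135; 0.034 by library total). Downstream of P2X7, Il1b, the gene of interleukin 1 beta, held 1389 and 1550 in WT and 1115 and 1224 in GrnKO (-0.33, limma adjusted p = 0.0525; -0.10 by library total), and Nlrp3, an inflammasome sensor gene, 1567 and 1588 in WT and 1501 and 1326 in GrnKO (-0.16, limma adjusted p = 0.337; 0.065 by library total). Itgb1, an integrin gene of process extension, was at 1269 and 1209 in WT and 994 and 986 in GrnKO (-0.32, limma adjusted p = 0.0519; -0.096 by library total). These 4 genes did not pass, and they were named after their values were seen.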

How the data were processed

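The values analysed were the signal of the deposited table, in which the authors scaled the tags of each 800 bp region to 10000000 tags per library, per the file headers. Regions are ATAC-seq peaks named in the header after other lines, not peaks called on these libraries. Bowtie2, HOMER, DESeq2 and mm10 are named in the submitters' processing notes, without versions. Multiplying by the library totals returned whole read ends for 100% of values (2 ends per tag, tolerance 0.05 of an end). WT and GrnKO were compared in the 4 H3K27ac libraries with limma 3.58.1 in R 4.3.3 on log2(scaled tags + 1) after TMM scaling (edgeR 4.0.16), which understates the change of low regions. Regions needed 10 tags by filterByExpr, trend was used in eBayes, and gene sums added all regions assigned to a gene with the same factors. Tags in overlapping regions therefore count more than once. Where a floor is given it is 3 tags per library and covers counting error only.

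Named regions of each gene were the one nearest its start, the highest, the one of smallest p and every one past the threshold. Other regions and genes were picked with their values in view. The members and the lists (other purinergic genes, and markers of microglia, border macrophages, monocytes and neutrophils, astrocytes, oligodendrocytes, neurons and endothelium) were chosen with earlier results of these data known. Replicate numbers do not pair mice across genotypes. The fits were tested on simulated data. Alternatives were edgeR and DESeq2 1.42.0 on the recovered ends, other scaling, pseudocount, filter, threshold and region sets, a replicate block and leaving out each library. Promoter windows are RefSeq GRCm38.p6, and for 5 of 6 members the table's start sites matched theirs exactly (within 16 bp for the other).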

Additional observations from a re-analysis of the deposited data

How the results depend on the processing

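In all, 457 values were recomputed under alternatives: 330 held in direction and call (or, for counts, stayed within 1.5 times), 47 lost the threshold, 26 gained it, 39 counts moved by more and 15 changed sign. In the authors' scaling the changes at P2ry12, P2ry13, P2ry6 and P2rx7 were 0.0087, 0.043, 0.13 and -0.14, no member region was lower (1 at an unadjusted limma p under 0.05), and 333 regions and 166 genes of all tested were lower. In that scaling 28 of the 118 tested member regions changed sign, among them, of the regions named in the report, P2ry12 at 59261445 (0.013) and 59262574 (0.029), P2ry13 at 59210383 (0.15) and 59229285 (0.10), P2ry6 at 100964012 (0.014) and P2rx4 at 122732113 (0.083). Leaving out libraries in turn moved the P2ry13 region at 59210383 between -0.16 and 0.018 and the Entpd1 region at 40659335 between -0.12 and 0.17. edgeR left 2 member regions lower. Without the filter 1 member region and 1408 regions of all were lower. Of the 9 regions past the threshold, 7 remained with edgeR, 8 with DESeq2, 9 with a pseudocount of 5 and 6 without the filter.

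Same-numbered libraries shared only a number (correlation of their deviations 0.034). With the replicate block P2ry12 (-0.22, limma adjusted p = 0.0207) and P2ry13 (-0.18, limma adjusted p = 0.0333) passed, with 10 member regions higher and 10 lower beside 7403 of all regions higher and 3988 lower.

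At an adjusted p under 0.1, P2ry12 (-0.22) and P2ry13 (-0.18) passed, with 9 member regions higher and 10 lower, beside 7535 of all regions higher and 4170 lower, and 1385 of all genes lower. Summing non-overlapping regions only, P2ry12 passed (-0.23). Within 1000 bp of a start, P2ry14 (1.22) and P2rx7 (-0.36) no longer passed, P2rx4 did (0.52), and 396 genes were higher and 184 lower, with fewer genes tested. Over 1000 bp from a start, P2ry14 (0.80) and P2rx7 (-0.39) did not pass. Subtracting the change of the sparse inputs gave -0.99 at P2ry14, -2.53 at P2rx4, -0.53 at Entpd1 and -1.87 at P2rx7, with no gene past the threshold in limma (0 higher and 0 lower; 211 and 676 at an unadjusted p under 0.05). Several input sums of WT replicate 1 were 0 there.

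Leaving out each library in turn gave -0.25 to -0.18 at P2ry12, -0.22 to -0.14 at P2ry13, 0.44 to 1.23 at P2ry14, 0.090 to 0.27 at P2rx4, -0.41 to -0.33 at P2rx7 and 0.089 to 0.21 at Entpd1. Member regions ranged from 0 to 15 higher and 0 to 9 lower (0 and 0 without either GrnKO replicate, where 8 higher and 4 or 9 lower had an unadjusted limma p under 0.05). All regions ranged from 1138 to 9636 higher and 196 to 4779 lower, and all genes from 556 to 1977 higher and 218 to 1739 lower. The lone library left in a genotype was assumed to vary like the other. The cause of these shifts was not tested. Recomputing TMM on gene sums was added after seeing the data. Inputs of 4078179 to 14415969 tags limit what can be said of background at single regions.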

Other observations

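Gpr34, an X-linked lysophosphatidylserine receptor gene of microglia related to the P2Y family, varied with replicate more than with genotype. Over its 22 regions it held 5152 scaled tags in the first WT replicate and 3811 in the second, and 4908 in GrnKO replicate 1 and 3275 in GrnKO replicate 2. Both first replicates were above both second ones, and the genotypes overlapped (log2 change -0.14, SE 0.16, limma adjusted p = 0.623; 0.082 by library total).

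Around P2ry12, P2ry13 and P2ry14, a pair of other genes within 50 kb rose. Igsf10, an immunoglobulin superfamily gene, held 93.5 and 78.8 scaled tags in WT and 271 and 272 in GrnKO and rose (log2 change 1.65, SE 0.20, limma adjusted p = 0.000138). F630111L10Rik held 15.6 and 16.0 in WT and 48.1 and 50.3 in GrnKO and rose (1.58, SE 0.40, limma adjusted p = 0.0175).

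Among markers of other cell types, Ccr2 fell of 3 tested monocyte and neutrophil genes (not by library total, limma adjusted p = 0.523), while S100a8, at 0 and 5.24 scaled tags in WT and 20.4 and 18.7 in GrnKO, passed the filter on low tags only through GrnKO and so had to differ. The list summed to 597 and 594 scaled tags in WT and 481 and 385 in GrnKO. Of 3 tested oligodendrocyte genes Mbp rose and Mog fell, with sums of 1985 and 1996 in WT and 2502 and 2644 in GrnKO. Flt1 rose among 3 endothelial genes, with sums of 805 and 886 in WT and 1207 and 1299 in GrnKO. Syt1 fell among 4 neuronal genes (not by library total, limma adjusted p = 0.104), whose sums overlapped between genotypes, and of 3 tested astrocyte genes none passed with limma (1 at an unadjusted p under 0.05). Ectonucleotidase genes other than Entpd1 were low: Enpp1, the highest per region of them, held 42.6 and 63.9 scaled tags in WT and 98.7 and 87.0 in GrnKO (0.82, SE 0.29, limma adjusted p = 0.0823; by library total 1.04, limma adjusted p = 0.0186).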
